A study of Mus musculus with 12 samples.

Results

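The genes described here encode the machinery of nuclear transport, namely nucleoporins, karyopherins (importins and exportins) and the proteins of the Ran cycle. They were taken by symbol alone, as Nup, Kpna, Kpnb, Ipo, Tnpo or Xpo followed by a number, or as Ran, Rangap1, Ranbp1, Ranbp2, Ranbp3, Ranbp3l, Rcc1, Cse1l, Nutf2 or Nxf1. Symbols holding -ps, which mark pseudogenes, were left out and no level was required. The rule found 53 of the 52015 genes used, of which 21 are nucleoporins, 24 are transport receptors and 8 belong to the Ran cycle. They lie on 17 chromosomes, and 51 of the 53 reached 0.5 FPKM in at least 1 group.

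RNA-seq had been done on mpkCCD cells, a mouse line with features of principal cells of the cortical collecting duct. Nfat5-KO cells were the CRISPR/Cas9 clones N1 and N3, in which the gene of the osmotic stress transcription factor NFAT5 was targeted, and Scr cells, labelled WT, carried a scramble gRNA with no target. Cells were kept for 5 days at 300 mosmol/kg (isotonic) or at 600 mosmol/kg (hypertonic, reached with 100 mM NaCl and 100 mM urea). There were 4 libraries each of Nfat5-KO_300 and Nfat5-KO_600 and 2 each of Scr_300 and Scr_600, and clone and genotype cannot be told apart in the group values.

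The deposited table gave 1 FPKM value (fragments scaled to gene length and to the number of reads) per gene for each of the 4 groups, so no SD, n or p-value stands beside any value, and no difference could be set against the spread between replicates. Depth is unknown. The FPKM values summed to 253756 in Scr_300, 231932 in Scr_600, 251080 in Nfat5-KO_300 and 212247 in Nfat5-KO_600. Because these sums differ, every column was also rescaled to the same sum, which raised the median log2 ratio of all genes in the hypertonic groups, from -0.040 to 0.20 in Nfat5-KO_600 against Nfat5-KO_300, and values with equal sums are given beside the main counts and medians. Nfat5 itself was listed at 5.61 FPKM in Scr_300, 7.93 in Scr_600, 3.47 in Nfat5-KO_300 and 6.88 in Nfat5-KO_600, so its mRNA level did not separate the genotypes at 600 mosmol/kg and does not check the labels. Of 13 markers of principal cells, Krt8, Krt18 and Cdh1 were at 72.7 FPKM or more in every group, whereas Avpr2, Aqp4, Elf5, Scnn1b and Scnn1g stayed under 0.2 and Aqp2 reached 0.245 at most. The other 4 were expressed, of which Aqp3 stayed between 2.07 and 2.93 FPKM. Gata3 (3.41 in Scr_300, 4.33 in Scr_600, 11.8 in Nfat5-KO_300 and 30.0 in Nfat5-KO_600), Hsd11b2 (0.383, 0.655, 1.95 and 6.18) and Scnn1a (2.95, 1.31, 3.56 and 7.03) were highest in Nfat5-KO_600, and their part in the differences between genotypes was not tested. None of 6 markers of intercalated cells reached 0.5 FPKM, and of 9 markers of other cell types Lrp2 did so, with 1.07 in Nfat5-KO_600.

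Proteins and RNA pass between nucleus and cytoplasm through nuclear pore complexes, which are built of nucleoporins arranged as outer rings (the Y complex), an inner ring, a central channel, cytoplasmic filaments and a nuclear basket. Importins bind cargo in the cytoplasm and release it where they meet Ran bound to GTP, whereas exportins bind cargo together with Ran-GTP. Rcc1 on chromatin keeps Ran loaded with GTP in the nucleus, and Rangap1 with Ranbp1 and Ranbp2 lets Ran hydrolyse GTP in the cytoplasm, and this gradient gives transport its direction. In kidney medulla cells, NFAT5 is known to move into the nucleus when tonicity rises.

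At 300 mosmol/kg most transport genes were slightly higher in Nfat5-KO cells. Of the 49 members compared, 38 (77.6%) were higher and 11 were lower in Nfat5-KO_300 than in Scr_300, beside 49.8% higher among all 12704 genes compared. Their median log2 ratio was 0.12, beside -0.0015 for all genes. At 600 mosmol/kg the count lay the other way, with 34 of 51 (66.7%) below Scr_600 in the Nfat5-KO_600 column, beside 52.2% of all genes, and a median of -0.077 beside -0.020. With equal FPKM sums 21 of 51 (41.2%) were lower, beside 38.5% of all genes. The median was then 0.050, beside 0.11 for all genes, so the direction of this median turned. Below the median of all genes lay 32 of 51 members. Rescaling moves all genes of a column alike and hardly changes such a count, so it does not test it.

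On the deposited scale most members were lower at 600 mosmol/kg in both genotypes. With equal FPKM sums 22 of 50 members (44%) were lower in Scr cells, beside 40.2% of all genes. In Nfat5-KO cells 29 of 50 (58%) were then lower, beside 34% of all genes. As deposited, the count in Scr cells was 32 of 50 (64.0%), beside 54.6% of all genes, with a median log2 ratio of -0.10 beside -0.041. In Nfat5-KO cells it was 41 of 50 (82.0%), beside 52.9%, with a median of -0.28 beside -0.040. With equal sums the median in Scr cells turned to 0.028, beside 0.088 for all genes, and that in Nfat5-KO cells became -0.038, beside 0.20. Below the median of all genes lay 32 of 50 members in Scr cells and 41 of 50 in Nfat5-KO cells. These counts too are hardly changed by rescaling and are not tested by it.

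These were shifts of many genes by small amounts. In Nfat5-KO_300 against Scr_300, 0 of 49 members differed by 1.5-fold or more, which 11.5% of all genes did. Of 51 members 3 did so in Nfat5-KO_600 against Scr_600 (Kpna4 and Nup210l higher, Ranbp3l lower), beside 19.3% of all genes. Between Scr_600 and Scr_300 it was 2 of 50 (Ranbp3l higher, Nup37 lower), beside 19.4%. Between Nfat5-KO_600 and Nfat5-KO_300 it was 8 of 50, beside 27.9%, with Nup210l higher and Ipo5, Nup37, Xpo4, Ranbp1, Rcc1, Nup35 and Nup43 lower. The 7 lower members were near the share of all genes that were at least 1.5-fold lower, which was 13.8%, and with equal sums only Ipo5 of the 7 was still past that limit, beside 6.73% of all genes. On the log2(FPKM + 0.1) scale of the deposited columns, a difference of 2-fold or more was found in Ranbp3l and Ipo5 among the 51 members at 0.5 FPKM. With equal sums Ipo5 was no longer past 2-fold, and Nup210l was past it in Nfat5-KO_600 against Scr_600 with equal sums or without the added 0.1. As deposited, the shares of all genes past 2-fold were 4.17% and 7.44% between genotypes at 300 and 600 mosmol/kg and 7.67% and 10.4% between osmolalities in Scr and Nfat5-KO cells.

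**Figure D1:**
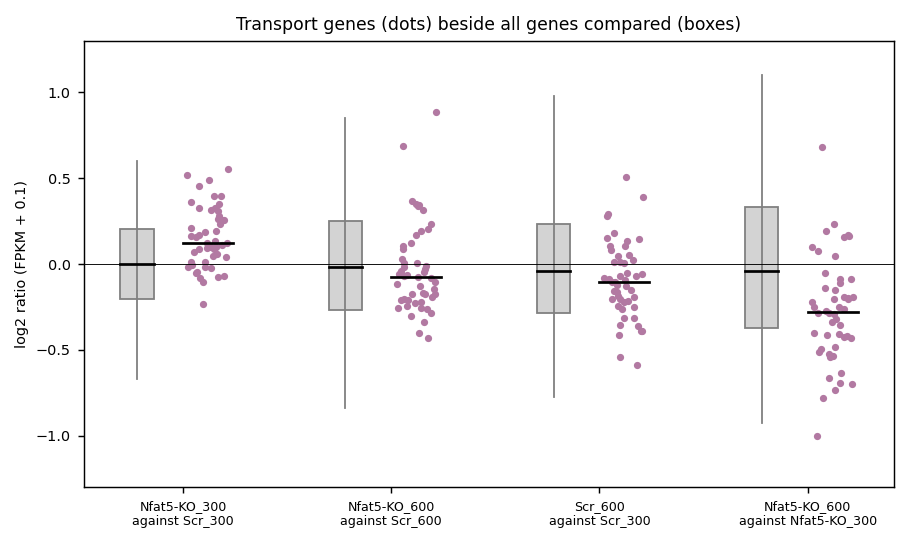
Log2 ratios of FPKM + 0.1 in the 4 comparisons. Dots are the transport genes compared without Ranbp3l, grey boxes span the middle of all genes compared from the 25th to the 75th percentile, whiskers run from the 5th to the 95th, and black bars are medians; the dots in Nfat5-KO_600 against Nfat5-KO_300 have a median of -0.28, which becomes -0.038 with equal FPKM sums, and the medians at 600 mosmol/kg against Scr_600 and Scr_300 turn their sign under that scaling.

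The members were well expressed, 48 of the 51 with a mean of 5 FPKM or more, so the genes of that level were set beside them too. Among all 7147 such genes, 51.4% were above Scr_300 in Nfat5-KO_300, as were 37 of the 48 members in that range. In Nfat5-KO_600 against Nfat5-KO_300, 60.4% of them were lower, with a median of -0.11, as were 40 of the 48 members, with -0.29. At least 1.5-fold differences were found there in 20.7% of those genes and in 7 of the 48 members. The other comparisons set the members less apart from genes of their level. In Nfat5-KO_600 against Scr_600 it was 57.1% of the genes, with a median of -0.059, and 32 of 48 members, with -0.080. In Scr_600 against Scr_300 it was 57.5%, with -0.057, and again 32 of 48, with -0.11.

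Ranbp3l had the largest difference between groups and was above 0.1 FPKM in 1 group only. It encodes a Ran-binding relative of Ranbp3 that has been described as an export factor for Smad proteins of BMP signalling. The gene lies at chr15:8967949-9067335 on the plus strand (GRCm38). Ranbp3l was listed at 0 FPKM in Scr_300, at 3.53 in Scr_600, at 0.00118 in Nfat5-KO_300 and at 0.0127 in Nfat5-KO_600. The hypertonic Scr cells thus stood apart from the other 3 groups, and no fold is given against values at or near 0. Nup155, a scaffold nucleoporin whose gene lies 807 kb away on the same chromosome, was at 9.21 FPKM in Scr_300, 8.41 in Scr_600, 12.1 in Nfat5-KO_300 and 9.89 in Nfat5-KO_600 and did not share that pattern.

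Promoter windows from RefSeq (GRCm38.p6, 250 bases before to 50 bases after a start site) matched 42 of the 53 members, and 3 of them are shown, that of Ranbp3l as the member that differed most and those of Ran, the most abundant member, and Nup50, as examples with the motifs named next. The capitals mark TGGAAA, the core of the tonicity-responsive element that NFAT5 binds, CACGTG, the E-box bound by MYC and related factors, and GCATGCG, the middle of the palindrome bound by NRF1, each on either strand, where matches of GCATGCG on both strands overlap. Ranbp3l is at chr15:8967699-8967998, Ran at chr5:129019906-129020205 and Nup50 at chr15:84923178-84923477, all on the plus strand.
Ranbp3l: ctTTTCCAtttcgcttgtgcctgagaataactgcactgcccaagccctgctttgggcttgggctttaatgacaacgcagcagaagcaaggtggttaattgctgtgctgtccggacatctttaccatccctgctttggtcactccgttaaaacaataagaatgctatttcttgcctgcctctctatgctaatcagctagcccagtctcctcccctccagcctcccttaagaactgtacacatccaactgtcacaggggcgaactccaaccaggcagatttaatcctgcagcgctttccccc
Ran: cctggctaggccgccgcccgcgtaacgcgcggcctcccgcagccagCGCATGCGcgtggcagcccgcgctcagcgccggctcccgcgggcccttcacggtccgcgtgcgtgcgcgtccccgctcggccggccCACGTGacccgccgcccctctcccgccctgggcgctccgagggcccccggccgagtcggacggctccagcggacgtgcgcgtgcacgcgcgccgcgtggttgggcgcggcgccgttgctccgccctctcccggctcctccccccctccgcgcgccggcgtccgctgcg
Nup50: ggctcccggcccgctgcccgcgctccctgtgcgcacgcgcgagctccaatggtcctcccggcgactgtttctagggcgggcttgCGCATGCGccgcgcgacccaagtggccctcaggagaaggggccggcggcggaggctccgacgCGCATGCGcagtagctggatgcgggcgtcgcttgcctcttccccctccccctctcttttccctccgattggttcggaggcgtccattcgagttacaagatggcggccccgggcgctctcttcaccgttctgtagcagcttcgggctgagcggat
The Ranbp3l window holds 1 TGGAAA core, read on the minus strand at position -248 from the start site, and neither of the other motifs. It has 50.3% G and C and 6 CpG, whereas the Ran window has 82.0% and 58, and the median of the 51 member windows was 64.3% and 28, beside 52.7% and 7 over all 32851 windows and 61.0% and 21 over the 11526 windows of genes at 0.5 FPKM. The Ran window thus had the highest G and C content of the member windows and is not typical of them. The Ran window holds a CACGTG at position -118 and GCATGCG at 1 place, and the Nup50 window holds GCATGCG at 2 places.

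Across the 42 members with a window, TGGAAA was found in 4 (9.52%), namely Ranbp3l, Ipo11, Nup93 and Nup62cl, beside 23.9% of all 27025 genes and 19.0% of those that reached 0.5 FPKM. CACGTG was found in 8 (19.0%), namely Ran, Ranbp2, Ipo4, Ipo7, Tnpo2, Nup54, Nup93 and Nup188, beside 8.09% of all genes and 11.9% of those at 0.5 FPKM. GCATGCG was found in 7 (16.7%), namely Ran, Rcc1, Ranbp1, Xpo5, Nup50, Nup62 and Nup107, beside 4.01% and 7.58%. The member windows were thus richer in G and C than those of all genes and closer to those of expressed genes, and the part of base composition in these shares was not tested. These matches describe the letters of the windows, and no binding was measured.

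**Figure D2:**
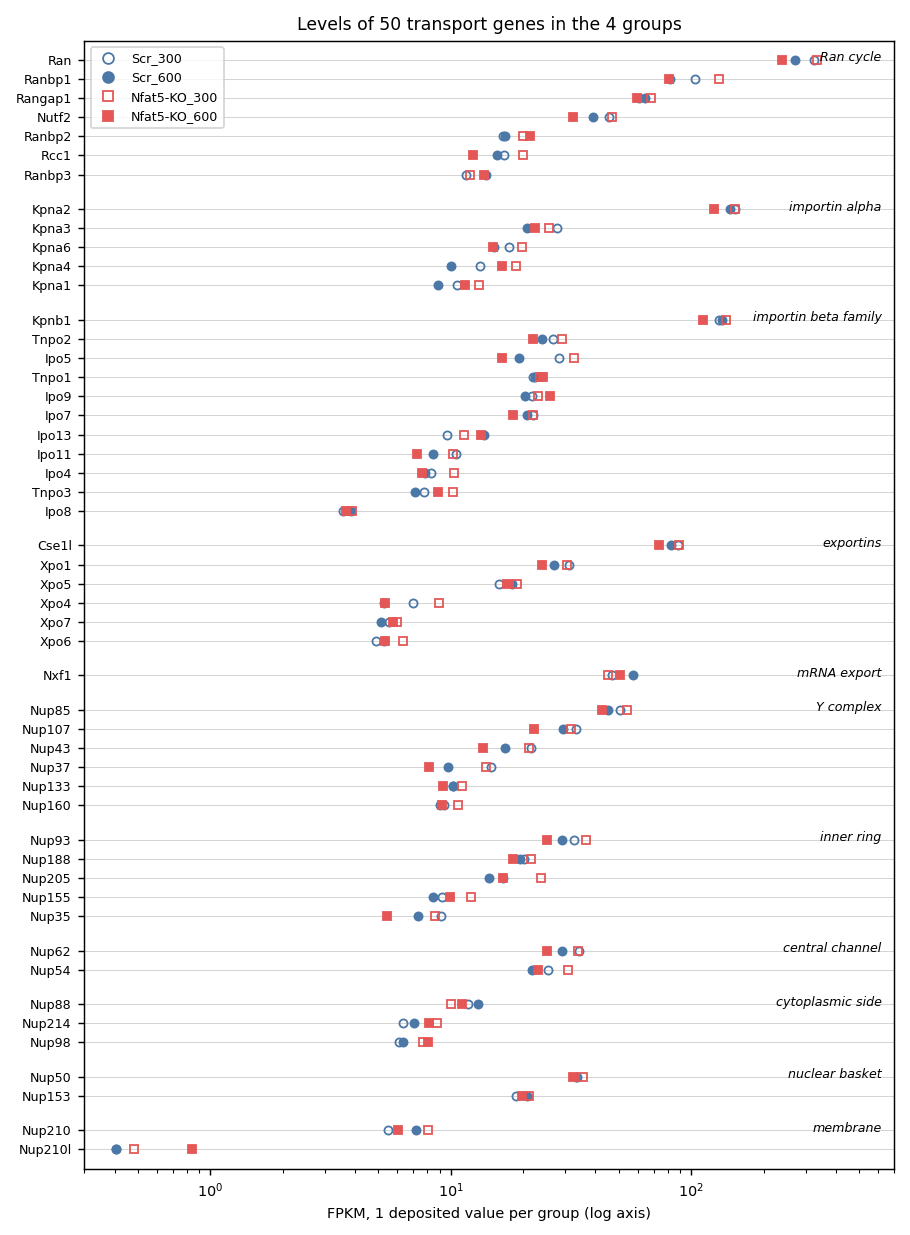
FPKM (log axis) of the 50 transport genes at 0.5 FPKM or more in a group other than Ranbp3l, grouped by role, with 1 deposited value per group. Circles are Scr cells and squares are Nfat5-KO cells, open at 300 and filled at 600 mosmol/kg; Ran lies highest at 238 to 333 FPKM and Nup210l lowest at 0.405 to 0.837.

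Among the members Ran was the highest in every group, where 72 to 91 other genes of the table lay above it, and made up 19.5% of the summed FPKM of the members in Scr_300, 17.6% in Scr_600, 18.7% in Nfat5-KO_300 and 17.0% in Nfat5-KO_600. Summed over the 53 genes, the level was 1658 FPKM in Scr_300, 1526 in Scr_600, 1782 in Nfat5-KO_300 and 1403 in Nfat5-KO_600, so the highest and the lowest sum were both in Nfat5-KO cells. As a share of all FPKM these sums were 0.654%, 0.658%, 0.710% and 0.661%. On that share Nfat5-KO_300 stood above the other 3 groups, which were close to each other. Kpna7, an importin alpha known from oocytes and early embryos, was listed at 0 in both Scr groups and under 0.01 FPKM in both Nfat5-KO groups. Nup62cl, a relative of the channel nucleoporin Nup62, was listed at 0 in all groups but Nfat5-KO_300, where it was at 0.00381.

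In the Ran cycle, all 7 genes that could be compared were higher in Nfat5-KO_300 than in Scr_300, and at 600 mosmol/kg 6 of the same 7 were below their Scr level, of which Ranbp1, Ranbp3 and Rangap1 turned with equal sums. Ran, the small GTPase, was at 323 FPKM in Scr_300, 269 in Scr_600, 333 in Nfat5-KO_300 and 238 in Nfat5-KO_600. Its log2 ratio between osmolalities was -0.26 in Scr and -0.48 in Nfat5-KO cells. Ran was thus lowest in the hypertonic Nfat5-KO cells and near its Scr level in the isotonic ones.

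Rcc1, the exchange factor that loads Ran with GTP, differed most between the responses of the genotypes among the Ran cycle genes with a value in every group. Rcc1 was at 16.7 FPKM in Scr_300, 15.6 in Scr_600, 20.0 in Nfat5-KO_300 and 12.3 in Nfat5-KO_600, so the Nfat5-KO groups were the highest and the lowest. Its log2 ratio between osmolalities was -0.095 in Scr cells, which turned with equal sums, and -0.69 in Nfat5-KO cells. Rangap1, which stimulates GTP hydrolysis by Ran, stayed between 59.4 and 67.8 FPKM, with 60.8 in Scr_300, 64.5 in Scr_600, 67.8 in Nfat5-KO_300 and 59.4 in Nfat5-KO_600. The ratio of Rangap1 to Rcc1 FPKM was accordingly 3.64 in Scr_300, 4.13 in Scr_600, 3.39 in Nfat5-KO_300 and 4.81 in Nfat5-KO_600, and such a ratio within a column does not depend on its scaling. The Rcc1 gene overlaps the snoRNA host Snhg3 on the same strand over 5592 bp, and Snhg3 was under 0.1 FPKM in every group. How reads in the overlap were assigned is not known, so this low value does not show that Rcc1 is free of them.

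Ranbp1, which works with Rangap1 in the cytoplasm, was at 104 FPKM in Scr_300, 81.4 in Scr_600, 131 in Nfat5-KO_300 and 80.6 in Nfat5-KO_600. It was highest in isotonic Nfat5-KO cells, with a log2 ratio of 0.33 to Scr_300. As deposited it was nearly equal in both hypertonic groups, with -0.015, which became 0.11 with equal sums. Nutf2, the carrier that returns Ran-GDP to the nucleus, was at 45.5 FPKM in Scr_300, 39.3 in Scr_600, 46.8 in Nfat5-KO_300 and 32.2 in Nfat5-KO_600. Its log2 ratio of -0.54 between the Nfat5-KO groups was the nearest below the 1.5-fold limit, as that of Nup43, -0.63, was the nearest above it. Rows of the pseudogenes Nutf2-ps1 and Nutf2-ps2, which could share reads with Nutf2, were at 3.00 to 5.35 and at 0.837 to 1.69 FPKM.

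As deposited, Ranbp2 and Ranbp3 alone of the 7 Ran cycle genes compared were higher at 600 mosmol/kg in both genotypes. With equal sums Rangap1 was too, with log2 ratios of 0.21 in Scr and 0.052 in Nfat5-KO cells. Ranbp2, the large cytoplasmic filament protein with SUMO ligase activity, was at 16.6 FPKM in Scr_300, 16.8 in Scr_600, 19.9 in Nfat5-KO_300 and 21.3 in Nfat5-KO_600 and was thus higher in Nfat5-KO cells at both osmolalities. Its log2 ratios between genotypes were 0.26 and 0.34. Ranbp3, a cofactor of Xpo1, was at 11.6 FPKM in Scr_300, 14.0 in Scr_600, 12.0 in Nfat5-KO_300 and 13.7 in Nfat5-KO_600. Ranbp3 was higher at 600 mosmol/kg in both genotypes, with log2 ratios of 0.28 and 0.19.

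Importin alpha proteins are adaptors that recognise the classical nuclear localisation signal. All 5 with a level were lower at 600 than at 300 mosmol/kg in both genotypes, but with equal sums Kpna2 turned in Scr cells and Kpna1, Kpna3 and Kpna4 turned in Nfat5-KO cells. Kpna2, by far the most abundant, was at 153 FPKM in Scr_300, 146 in Scr_600, 152 in Nfat5-KO_300 and 125 in Nfat5-KO_600. It made up 68.9%, 72.6%, 66.3% and 65.7% of the FPKM of this family in the same order, a smaller share in both Nfat5-KO groups than in both Scr groups. Kpna4 was at 13.2 FPKM in Scr_300, 10.1 in Scr_600, 18.7 in Nfat5-KO_300 and 16.3 in Nfat5-KO_600. Kpna4 was higher in Nfat5-KO cells at both osmolalities, with log2 ratios of 0.49 and 0.69, and so was Kpna1, with 0.31 and 0.37.

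In the importin beta family, 10 of 11 genes were higher in Nfat5-KO_300 than in Scr_300 and 8 of 11 were lower in hypertonic than in isotonic Nfat5-KO cells, of which Ipo8 and Tnpo3 turned with equal sums. Kpnb1, importin beta 1 and the partner of the alpha adaptors, was at 131 FPKM in Scr_300, 135 in Scr_600, 140 in Nfat5-KO_300 and 112 in Nfat5-KO_600. Hypertonic Nfat5-KO cells had less of it than either of the groups they are compared with. Its log2 ratio was -0.32 to Nfat5-KO_300 and -0.26 to Scr_600, and with equal sums these were -0.077 and -0.14. Ipo5, an import receptor of ribosomal proteins and histones at chr14:120911224-120947999, was at 28.2 FPKM in Scr_300, 19.3 in Scr_600, 32.7 in Nfat5-KO_300 and 16.3 in Nfat5-KO_600. Both hypertonic groups were below both isotonic groups, with log2 ratios of -0.54 in Scr and -1.0 in Nfat5-KO cells, and with equal sums these were -0.41 and -0.76. Ipo13, a receptor that carries cargo in both directions, was by contrast higher at 600 mosmol/kg, at 9.62 FPKM in Scr_300, 13.7 in Scr_600, 11.3 in Nfat5-KO_300 and 13.3 in Nfat5-KO_600. Ipo8 was the lowest of the family and stayed between 3.57 and 3.90 FPKM.

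Between the Nfat5-KO groups all 6 exportins were lower at 600 mosmol/kg, and with equal sums Xpo5 and Xpo7 turned. Xpo1, the receptor for leucine-rich export signals, was at 30.9 FPKM in Scr_300, 26.9 in Scr_600, 30.5 in Nfat5-KO_300 and 23.9 in Nfat5-KO_600. Cse1l, which returns importin alpha to the cytoplasm, was the most abundant exportin, at 87.9 FPKM in Scr_300, 82.7 in Scr_600, 88.7 in Nfat5-KO_300 and 73.3 in Nfat5-KO_600. Both hardly differed between the genotypes at 300 mosmol/kg, with log2 ratios of -0.020 and 0.012, and at 600 mosmol/kg both were lower in Nfat5-KO cells, with -0.17. Xpo4, an exportin whose known cargo includes the translation factor eIF5A, was at 6.97 FPKM in Scr_300, 5.30 in Scr_600, 8.92 in Nfat5-KO_300 and 5.33 in Nfat5-KO_600. Like Ranbp1 it was highest in Nfat5-KO_300 and, as deposited, nearly equal in both hypertonic groups. With equal sums its log2 ratio in Nfat5-KO_600 against Scr_600 was 0.13. Xpo6, the exporter of actin with profilin, was at 4.91 FPKM in Scr_300, 5.30 in Scr_600, 6.35 in Nfat5-KO_300 and 5.32 in Nfat5-KO_600. Nxf1, the receptor that takes bulk mRNA to the cytoplasm, was at 46.7 FPKM in Scr_300, 57.2 in Scr_600, 45.0 in Nfat5-KO_300 and 50.6 in Nfat5-KO_600. It was higher at 600 mosmol/kg in both genotypes, with log2 ratios of 0.29 and 0.17, and below its Scr level in Nfat5-KO cells at both osmolalities, with -0.052 and -0.18.

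As deposited, 17 of 20 nucleoporins were lower in hypertonic than in isotonic Nfat5-KO cells, beside 52.9% of all genes. Of the 17, Nup50, Nup153, Nup160 and Nup214 turned with equal sums. The lower levels were not particular to the pore scaffold, as the 2 central channel genes had a median log2 ratio of -0.42. All 6 members grouped here in the Y complex and all 5 of the inner ring were lower in this comparison, with medians of -0.42 and -0.52. With equal sums Nup160 turned and the medians were -0.18 and -0.28. In Scr cells 5 of 6 and 5 of 5 were lower at 600 mosmol/kg, with medians of -0.17 and -0.16, and with equal sums Nup160 and Nup188 turned. Each gene was given 1 group only, and the Y complex counts depend on that grouping. Nup98, grouped on the cytoplasmic side, had log2 ratios of 0.076 between the Nfat5-KO groups and 0.053 between the Scr groups. The rule takes only the Nup-numbered genes of the Y complex. The further Y complex subunits Seh1l and Sec13 and the attached Ahctf1 had log2 ratios of -0.14, -0.43 and -0.18 between the Nfat5-KO groups. Between the Scr groups these were -0.30, -0.062 and -0.23. With equal sums Seh1l and Ahctf1 turned between the Nfat5-KO groups and Sec13 between the Scr groups. Nup37 of the Y complex was at 14.7 FPKM in Scr_300, 9.73 in Scr_600, 14.0 in Nfat5-KO_300 and 8.11 in Nfat5-KO_600, with log2 ratios between osmolalities of -0.59 and -0.78. Nup43 of the same complex was at 21.6 FPKM in Scr_300, 16.8 in Scr_600, 21.2 in Nfat5-KO_300 and 13.6 in Nfat5-KO_600. For both genes the isotonic groups were close to each other and the hypertonic groups lay below them. Nup43 overlaps Pcmt1 on the opposite strand over 11379 bp, and Pcmt1 was at 16.9 to 19.4 FPKM, so if strand was not used in counting their reads cannot be told apart.

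Nup85 and Nup160 had the highest and the lowest mean level of the members grouped in the Y complex, at 42.7 to 53.9 and 9.03 to 10.7 FPKM. In the inner ring, Nup35, a nucleoporin that contacts the membrane, was at 9.15 FPKM in Scr_300, 7.34 in Scr_600, 8.64 in Nfat5-KO_300 and 5.41 in Nfat5-KO_600. It overlaps Dusp19, at 1.85 to 2.68 FPKM, on the same strand over 15126 bp. Nup93, which holds the inner ring together, was at 32.6 FPKM in Scr_300, 29.1 in Scr_600, 36.5 in Nfat5-KO_300 and 25.2 in Nfat5-KO_600. Both were lowest in Nfat5-KO_600, with log2 ratios to Scr_600 of -0.43 and -0.21.

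Nucleoporins outside the scaffold were less alike. Nup62 and Nup54 of the central channel were lower at 600 mosmol/kg in both genotypes, at 34.3 and 29.0 FPKM for Nup62 in Scr_300 and Scr_600 and at 33.9 and 25.2 in the Nfat5-KO groups, and at 25.4, 21.8, 30.8 and 23.1 for Nup54 in the same order. Both kept this direction with equal sums. On the cytoplasmic side, Nup88, Nup214 and Nup98 were all higher in Scr_600 than in Scr_300, with log2 ratios of 0.053 to 0.14. Nup98, whose protein sits on both faces of the pore and also binds genes inside the nucleus, was at 6.09 FPKM in Scr_300, 6.32 in Scr_600, 7.65 in Nfat5-KO_300 and 8.07 in Nfat5-KO_600, so it was higher in both Nfat5-KO groups. Nup88 was lower in both, at 11.8 FPKM in Scr_300, 12.9 in Scr_600, 10.0 in Nfat5-KO_300 and 11.2 in Nfat5-KO_600. The basket proteins Nup50 and Nup153 stayed within 32.2 to 35.5 and 18.7 to 21.1 FPKM. Their log2 ratios between the Nfat5-KO groups were -0.14 and -0.086, which became 0.10 and 0.16 with equal sums.

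Nup210, a nucleoporin that spans the pore membrane, had the largest difference in response to 600 mosmol/kg between the genotypes among the members other than Ranbp3l. It was at 5.48 FPKM in Scr_300, 7.20 in Scr_600, 8.08 in Nfat5-KO_300 and 6.02 in Nfat5-KO_600. The log2 ratio between osmolalities was 0.39 in Scr and -0.42 in Nfat5-KO cells, and that between genotypes was 0.55 at 300 and -0.26 at 600 mosmol/kg, and these 4 directions were kept with equal sums. Its relative Nup210l, known from testis, was low throughout, at 0.405 FPKM in Scr_300, 0.407 in Scr_600, 0.483 in Nfat5-KO_300 and 0.837 in Nfat5-KO_600, and was highest in hypertonic Nfat5-KO cells.

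The response to 600 mosmol/kg was set side by side in the 2 genotypes, which share no library. For 41 of 51 members (80.4%) the log2 ratio in Nfat5-KO cells was below that in Scr cells, beside 52.0% of all 13414 genes, and the median difference was -0.20 beside -0.015. With equal sums it was 39 of 51 (76.5%), beside 40.1% of all genes, and the median difference was -0.088 beside 0.097 for all genes. Below the median of all genes lay 41 of 51, a count that rescaling hardly changes and does not test. Of the 48 members with a mean of 5 FPKM or more 39 were lower, beside 58.8% of genes in that range, with a median of -0.20 beside -0.065. Ranbp3l reached 0.5 FPKM through Scr_600 alone, which fixes its direction, and without it the count was 40 of 50. By role as grouped here, the count was 6 of 7 in the Ran cycle without Ranbp3l, 6 of 6 in the Y complex and 5 of 5 in the inner ring. It was 9 of 11 in the importin beta family, 5 of 6 in the exportins and 2 of 5 in importin alpha. On the cytoplasmic side it was 1 of 3, and Nup98 of that group had a difference of 0.023. Of the Y complex genes outside the rule, Sec13 was lower by this measure (-0.37), and Seh1l (0.17) and Ahctf1 (0.055) were higher. The difference itself could not be tested with 1 value per group.

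Members that were lower at 600 mosmol/kg in Scr cells tended to be lower in Nfat5-KO cells too. Over the 50 members without Ranbp3l, Pearson's r between these log2 ratios was 0.67 and Spearman's rho 0.70, beside 0.59 and 0.61 over all genes. With Ranbp3l, r was 0.37 and rho 0.71. Genes within a column share libraries and depth, so these values describe the columns only. By level on the deposited scale, 32 of 51 members (62.7%) were highest in Nfat5-KO_300, beside 25.9% of all genes, and 25 (49.0%) were lowest in Nfat5-KO_600, beside 32.8%. With equal sums these counts were 18 (35.3%), beside 17.6%, and 15 (29.4%), beside 18.3%. As deposited, 31 of 51 (60.8%) were lower at 600 mosmol/kg in both genotypes, beside 40.1% of all genes, and 9 (17.6%) were higher in both, beside 33.3%. With equal sums 19 (37.3%) were lower in both, beside 24.3%, and 19 were higher in both, beside 50.1%.

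**Figure D3:**
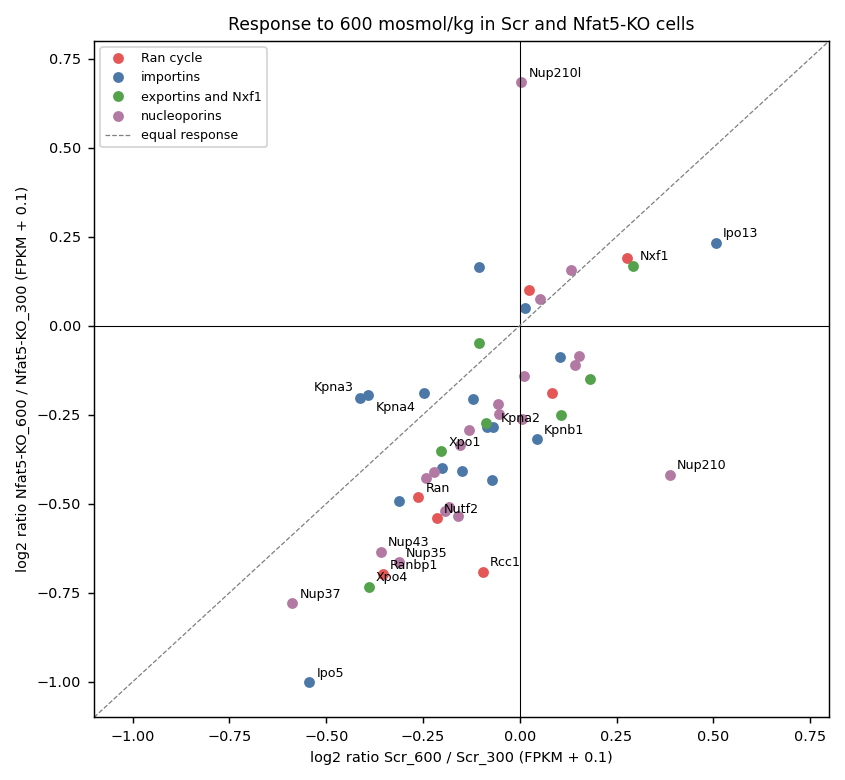
Log2 ratio of FPKM + 0.1 at 600 against 300 mosmol/kg in Scr cells (x axis) and in Nfat5-KO cells (y axis) for 50 transport genes, coloured by role, with the dashed line marking equal responses. Most points lie below the line, Ipo5 lies lowest at -1.0, and Nup210 lies in the lower right corner, at 0.39 in Scr and -0.42 in Nfat5-KO cells; with equal FPKM sums 12 genes change sign on the y axis and 10 on the x axis.

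Each member was also set beside its neighbours on the chromosome, the other genes within 10 Mb. For 9 of 50 members (Kpna1, Kpna4, Nup188, Nup205, Nup210, Nup210l, Nup214, Ranbp1 and Tnpo3) the median log2 ratio of these neighbours in Nfat5-KO_300 against Scr_300 was 0.15 or more (Nup210l is counted here although it was under 0.5 FPKM at 300 mosmol/kg). The limit of 0.15 was set after the values were seen and on the same 2 columns, so it does not test the direction of these members at 300 mosmol/kg. Nup188 and Nup214 on chromosome 2 share neighbours, as do Nup205 and Tnpo3 on chromosome 6, so these are not separate cases. No share of all genes in such regions is given. All 9 members were higher in Nfat5-KO_300, with a median of 0.40. At 600 mosmol/kg 6 of 9 were above Scr_600 in Nfat5-KO_600, with a median of 0.20. Of the other 41, 30 were higher and 11 lower at 300 mosmol/kg, with a median of 0.10, and 11 were higher and 30 lower at 600, with a median of -0.12. With equal sums 8 of the 9 were higher at 600, since Nup188 and Ranbp1 turned, with a median of 0.33, and of the other 41 there were 22 higher and 19 lower, with a median of 0.010. The higher levels of Kpna4 and Kpna1 at both osmolalities moved with those of their neighbours, whose medians were 0.23 and 0.32 around Kpna4 and 0.26 and 0.27 around Kpna1, and their part in the result was not tested. Ranbp2 and Nup98, which were also higher at both, had neighbours with medians of -0.14 and -0.019 around Ranbp2 and of -0.019 and -0.063 around Nup98. As deposited, 16 of 51 members (31.4%) were higher in Nfat5-KO cells at both osmolalities, near the 30.8% of all genes. Ipo9, Nup155, Tnpo1, Xpo4, Xpo6 and Xpo7 were among them and likewise had neighbours with negative medians.

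**Figure D4:**
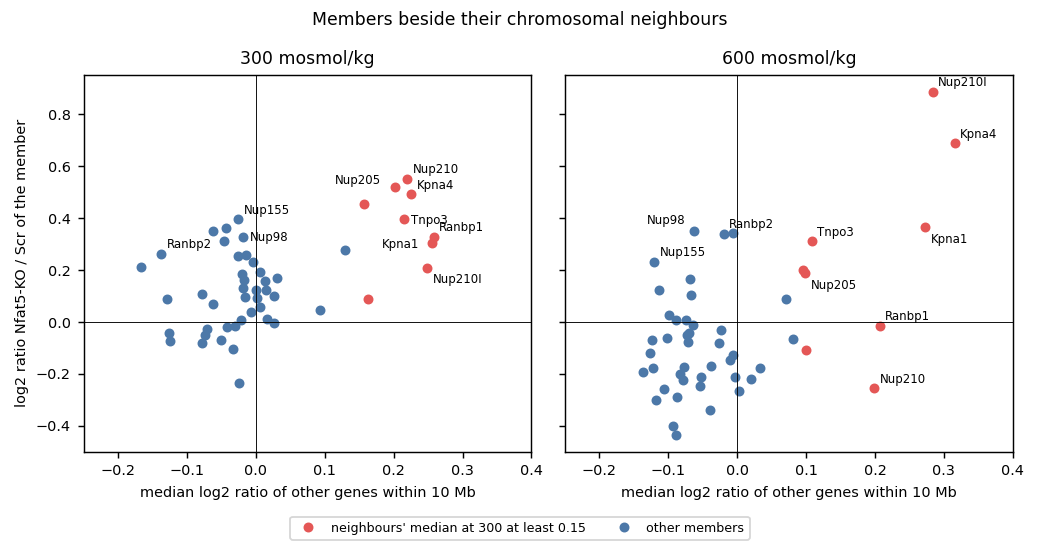
Log2 ratio of FPKM + 0.1 in Nfat5-KO against Scr cells of each of 50 members (y axis) against the median log2 ratio of the other genes within 10 Mb (x axis), at 300 mosmol/kg (left) and 600 mosmol/kg (right). The 9 members in red have neighbours with a median of at least 0.15 at 300 mosmol/kg, a limit set after the values were seen, and are all above 0 there. On this deposited scale 3 of them are below 0 at 600, of which Nup210 alone stays below 0 with equal FPKM sums.

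Other genes of the pathway, which the rule does not take, were counted the same way. Among all genes compared, 49.8% were higher in Nfat5-KO_300 than in Scr_300. In Nfat5-KO_600 against Nfat5-KO_300, 52.9% of all genes were lower as deposited and 34% with equal sums. Of 10 further pore genes such as Tpr, Pom121 and Ndc1, 8 were above Scr_300 in Nfat5-KO_300, and 8 were below Nfat5-KO_300 in Nfat5-KO_600 with a median of -0.14, which became 3 and 0.10 with equal sums. Of 19 mRNA export factors 14 were lower in the latter comparison, with a median of -0.19, which became 7 and 0.052. Of 8 other transport receptors 8 were lower, with a median of -0.32, and with equal sums 4 were, with -0.078. Of 12 genes of the lamina and nuclear envelope 8 were lower, with a median of -0.34, and with equal sums 7 were, with -0.095. Among these, Banf1, which ties chromatin to the envelope, was at 288 FPKM in Scr_300, 224 in Scr_600, 245 in Nfat5-KO_300 and 141 in Nfat5-KO_600, and Lmna, lamin A/C, was at 25.8, 14.6, 46.3 and 28.1 in the same order. Lmna was thus higher in Nfat5-KO cells at both osmolalities while Banf1 was lower at both.

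Genes of proliferation also stood lower at 600 mosmol/kg. Of 18 such genes 17 were lower in Scr cells, beside 54.6% of all genes, with a median log2 ratio of -0.20. In Nfat5-KO cells 17 were lower too, beside 52.9%, with -0.31. With equal sums it was 15 in Scr cells, beside 40.2% of all genes, with -0.076. In Nfat5-KO cells it was then 13, beside 34%, with -0.067. In Nfat5-KO_300 against Scr_300, where 38 of 49 transport genes were higher, 13 of 18 were lower, beside 50.2% of all genes, with a median of -0.13. In Nfat5-KO_600 against Scr_600 it was 15 of 18, beside 52.2%, with -0.21. With equal sums these counts were 12 and 13, beside 48% and 38.5% of all genes, with -0.12 and -0.086. The difference between the responses was below 0 for 11 of 18 (61.1%), with a median of -0.10, and for 41 of 51 transport genes, with -0.20. It was below 0 for 52.0% of all genes and for 58.8% of those averaging 5 FPKM or more. The part of proliferation in the levels of the transport genes was not tested.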

How the data were processed

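Poly-A mRNA libraries of 12 mpkCCD cultures had been sequenced as paired ends. The authors mapped reads to GRCm38 (mm10) with HISAT2 and used HTSeq for counting, and the deposited FPKM values hold 1 value per gene and group. How libraries were combined, the annotation release, tool versions and the use of strand are not given in the sources used here. Of 54839 rows, 2436 had no value and 311 repeated another row exactly. Without these, and without symbols whose rows differed, 52015 genes remained.

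Log2 ratios of FPKM + 0.1 were taken where a gene reached 0.5 FPKM in either group compared. On this scale changes of low genes are understated. Single genes got a ratio where both groups had at least 0.1 FPKM. Shares of all genes past 1.5-fold and 2-fold were set beside the members, and no p-value was computed. The steps were tested on simulated data. Members and lists were chosen with earlier results of these data known. Named with values were Kpnb1, Xpo1 and the 10 genes listed by symbol in the rule, members at least 1.5-fold different in any comparison, and the highest and lowest of each role. Kpna1, Ipo13, Nup155, Lmna, Banf1, Seh1l, Sec13, Ahctf1, Gata3, Hsd11b2 and Scnn1a were added after their values were seen. So were the GCATGCG motif, ratios without the added 0.1, the background of genes averaging 5 FPKM or more and the neighbours within 10 Mb with their limit of 0.15. A longer form of the NRF1 palindrome was searched before GCATGCG and is not reported here. Positions came from GENCODE M21 (GRCm38), where all 53 members were found, and promoters from RefSeq. Python 3.11.15, numpy 2.4.6, pandas 2.3.3 and matplotlib 3.10.9 were used. Alternatives were pseudocounts of 1 and 0.01 FPKM, no filter, a filter on a mean of 1 FPKM, columns rescaled to equal sums, median-of-ratios factors and rows of the same symbol summed.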

Additional observations from a re-analysis of the deposited data

How the results depend on the processing

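No paired analysis was possible because the table holds 1 value per group, and for the same reason leaving out a replicate was not run. Across 7 alternatives, 151 values over the members stayed within their limits, 15 moved and 2 reversed. Of the values of single genes, 771 stayed and 97 moved. The changes of filter and the summing of rows cannot alter the ratio of a member, and these values count among those that stayed. Only differences past 1.5-fold could be labelled reversed, and 0 were. Smaller ratios that changed sign are counted as stayed or moved. With columns rescaled to the same FPKM sum, the median log2 ratio of the members turned to 0.050 in Nfat5-KO_600 against Scr_600 and to 0.028 in Scr_600 against Scr_300, and it became -0.038 in Nfat5-KO_600 against Nfat5-KO_300. Under it 21 members (41.2%) were below Scr_600 in Nfat5-KO_600, beside 38.5% of all genes, and 1 was past 2-fold upwards there (0 as deposited). In Scr_600 against Scr_300 the counts past 1.5-fold were 2 upwards and 0 downwards, and in Nfat5-KO_600 against Nfat5-KO_300 1 was past 1.5-fold and 0 past 2-fold downwards. These follow from the rescaling, which moves all genes of a column alike. Median-of-ratios factors left 0 members past 1.5-fold downwards in Scr_600 against Scr_300. A pseudocount of 1 FPKM left 0 there as well, 0 past 1.5-fold upwards and 0 past 2-fold downwards in Nfat5-KO_600 against Nfat5-KO_300, and 1 past 1.5-fold upwards in Nfat5-KO_600 against Scr_600. The filter on a mean of 1 FPKM, which removes Nup210l, gave 0 and 1 for these counts past 1.5-fold upwards, and a pseudocount of 0.01 FPKM gave 1 member past 2-fold upwards in Nfat5-KO_600 against Scr_600. Depth is unknown, so the precision of low values such as those of Nup210l, Kpna7 and Nup62cl cannot be given.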
